A study of Mus musculus with 22 samples.

Results

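The retinal pigment epithelium (RPE) of AdipoR1 knockout (KO) mice was compared with that of wild type (WT) mice across all genes, in 8 of the 22 samples of the series: 4 WT and 4 KO bulk RNA libraries, all from C57BL/6J animals at postnatal day 30 (P30). The KO animals were AdipoR1-/-, homozygous for the Adipor1tm1Dgen allele, a germline allele of 129P2 origin, so the RPE, the retina and the rest of the body carried it together. Mice of both sexes were used, and the colony was backcrossed to C57BL/6J and, by the paper, also to an albino B6 strain. RPE cells were shaken off the eyecup after the anterior segment and the retina had been lifted away, so RNA of neighbouring tissues could come along. WT and KO retinas of the same age, 4 of each, were used only for comparison. The RPE libraries held 20133143 to 38409496 counts (WT) and 25218270 to 27767074 counts (KO). The labels do not say whether a library came from 1 animal or a pool, so the p-values measure the spread between these libraries.

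The RPE is a pigmented cell layer between the photoreceptors and the choroidal blood supply. It regenerates the visual chromophore, takes up shed outer segments, exchanges ions, lactate and lipids with the photoreceptors, and secretes factors toward both sides. ADIPOR1 is a membrane receptor for the adipocyte hormone adiponectin, has ceramidase activity, and is needed in the eye for normal levels of docosahexaenoic acid, the long polyunsaturated fatty acid of photoreceptor membranes.

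Adipor1 itself (ENSMUSG00000026457, chr1:134415378-134433351, mm10) was measured first. Its level was 379, 404, 479 and 374 CPM (the usual normalised read count, scaled by TMM library size) in WT libraries 1 to 4 and 142, 148, 152 and 139 CPM in KO libraries 1 to 4. All KO values lay below all WT values, a 2.81-fold lower level (log2 fold change -1.49, SE 0.09, adjusted p = 0.00021). Here and for every gene below, the adjusted p comes from the quasi-likelihood test of edgeR, with the Benjamini-Hochberg method applied over all genes tested, and the standard error (SE) is that of the log2 fold change, KO minus WT. The counts are summed per gene, so the part of the transcript that still gave reads cannot be named. Adipor2, the other adiponectin receptor, was at 294–423 CPM in WT against 297–318 CPM in KO, and the groups overlapped (log2 fold change -0.25, SE 0.11, adjusted p = 0.23).

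Genes beside Adipor1 were looked at apart, since sequence of the donor strain can stay linked to a targeted allele. Differentially expressed genes (DEGs) had an adjusted p under 0.05 and a change of at least 1.5-fold. Of 108 genes tested within 5 Mb, Adipor1 itself included, 10 were DEGs (9.26%). Among all genes tested the share was 4.97% (944 of 18989). Within 10 Mb and 20 Mb the shares were 7.43% and 7.8%. The targeted gene Adipor1 is counted as a DEG in each of these windows, so the shares of its neighbours alone are lower. Distal of Adipor1, Lad1 (ladinin, 1.40 Mb away) was at 37.2, 11.5, 4.83 and 15 CPM in WT and 106, 103, 105 and 112 CPM in KO (log2 fold change 2.63, SE 0.54, adjusted p = 0.026), and its neighbour Tnnt2 (cardiac troponin T) rose from 0.471–1.31 CPM in WT to 2.24–5.9 CPM in KO (log2 fold change 2.28, SE 0.45, adjusted p = 0.022). Both were also higher in KO retina, by 5.07 and 4.33 on the log2 scale. On the proximal side Nuak2, a kinase of the AMPK family at -2.10 Mb, fell from 62.7–127 CPM in WT to 33.2–38.9 CPM in KO (log2 fold change -1.32, SE 0.21, adjusted p = 0.0087), and Lemd1, at -2.22 Mb, rose from 1.36–4.35 CPM in WT to 8.54–13.1 CPM in KO (log2 fold change 2.19, SE 0.37, adjusted p = 0.012). These genes were chosen after their values were seen, and linked donor sequence and loss of the receptor cannot be told apart for them. The call of Lad1 was lost without KO library 1, 2, 3 or 4 or WT library 2 or 4 (adjusted p up to 0.075) and that of Tnnt2 without KO library 2, 3 or 4 or WT library 3 or 4 (adjusted p up to 0.07).

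Across all genes, 383 DEGs were higher in KO RPE (2.02% of those tested) and 561 were lower (2.95%). All KO values lay above all WT values in 1400 genes (7.37%) and below them in 1483 (7.81%). The counts of every gene list below are to be read against these shares. The lists were chosen with earlier results of these data known, so a share above these can be built in in part. The median log2 fold change was -0.019. Without KO library 2 or 4 there were 588 and 563 DEGs, and without WT library 1 there were 1677, of which 1076 were higher. The excess of lower calls came with the type of gene. Of 15171 protein-coding genes, 295 rose (1.94%) and 237 fell (1.56%), whereas of 1831 processed pseudogenes, intronless copies of other genes' transcripts, 47 rose (2.57%) and 284 fell (15.5%). In the retina 60 processed pseudogenes rose and 27 fell of 1849, where 1357 of all 19381 genes rose (7.0%) and 589 fell (3.04%).

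The 284 pseudogenes that fell were picked by this same contrast, so lower sums and little overlap in KO were built in. Together the 284 held 1796, 1684, 1669 and 1793 CPM in WT libraries 1 to 4 and 871, 829, 834 and 863 CPM in KO libraries 1 to 4, and 283 of them had no overlap between the groups. As single genes they were low, with a median level of 2.53 CPM in WT and 0.914 CPM in KO. All processed pseudogenes tested, summed, held 30282 to 34126 CPM in WT and 33654 to 35127 CPM in KO, and these ranges overlapped. Gm4335 fell from 7.64–11.2 CPM in WT to 1.59–2.38 CPM in KO (log2 fold change -2.27, SE 0.18, adjusted p = 0.00054) and Tpt1-ps5 from 8.87–13.9 CPM in WT to 2.8–3.41 CPM in KO (log2 fold change -1.74, SE 0.17, adjusted p = 0.0011). In KO retina the log2 fold changes of these pseudogenes were 0.52 and 0.16. Gm8797, a predicted gene annotated as protein-coding and so not among the 284, was at 85.3, 78.5, 88.4 and 86.1 CPM in WT and 24, 22.1, 23 and 23.5 CPM in KO (log2 fold change -1.87, SE 0.06, adjusted p = 7.6e-06), and its log2 fold change in retina was 0.10.

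Because a processed pseudogene resembles its parent gene, the share of its 31-base words that also occur in annotated coding transcripts was computed. The median share was 39.9% for those that fell, 54.7% for those that rose and 57.4% for those not called. Of the 284 that fell, 87 (30.6%) shared at least 50% of their words, against 57.7% of those not called. The 170 coding genes that shared most words with them and were tested had a median log2 fold change of -0.02, with 1 higher and 8 lower. The sources used here do not give how reads that match several places were counted. Single pseudogene values are therefore uncertain, and the part of read assignment in this group was not tested. A fit on protein-coding genes alone gave 444 DEGs, 230 higher and 214 lower.

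**Figure D1:**
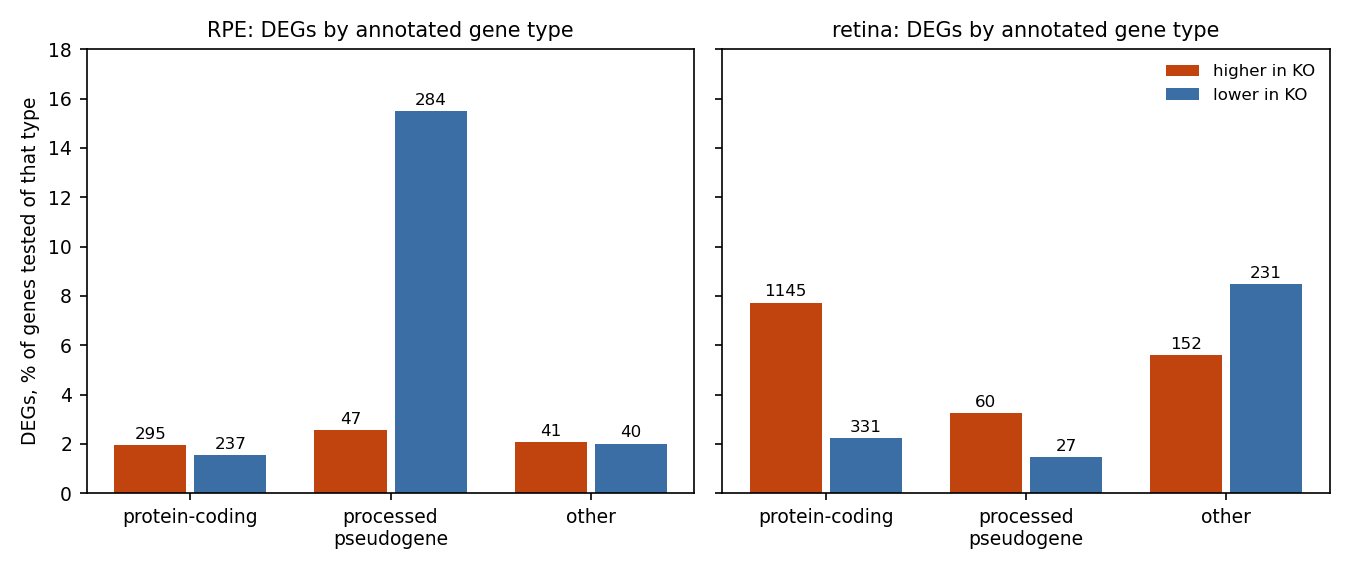
Share of genes tested that were DEGs, in percent, by annotated gene type in RPE (left) and retina (right). Bars start at 0, the colour gives the direction in KO, and the number on each bar is the count of DEGs. Processed pseudogenes lower in KO RPE form the tallest bar (284 genes, 15.5%), which has no counterpart in the retina (27 genes).

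To keep genes native to the RPE apart from carried-over RNA, each gene was classed by its mean log2 CPM in the 8 RPE libraries minus that in 4 WT retinas: RPE-enriched at a difference of 2 or more, retina-enriched at -2 or less, and shared otherwise. Of 3236 RPE-enriched genes, 171 rose (143 of them protein-coding) and 166 fell (103 protein-coding). Because the KO libraries enter the class, a change in KO can itself move a gene into or out of it. The class was also taken from the 4 WT RPE libraries alone, an alternative added after the data were seen. Then 110 of 3167 RPE-enriched genes rose and 265 fell. Thus 61 of the 171 that rose were RPE-enriched through their KO values. The class from WT alone is biased the other way, since a high WT value can move a gene into it. Of the 265 that fell, 166 were RPE-enriched in both classings. In the class from all 8 libraries, of 14073 shared genes, 211 rose and 394 fell, of which 238 were processed pseudogenes. Of 1680 retina-enriched genes, 1 rose (Gm15983) and 1 fell (Lrit2, a photoreceptor-expressed leucine-rich repeat protein), although the median log2 fold change of this class was -0.698. Each call was lost in 7 of the 8 fits with 1 library left out (adjusted p up to 0.13 and 0.15). Taking the replicate number as a block, the retina-enriched class from all 8 libraries had 5 higher and 29 lower DEGs among the same genes.

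The wide spread of retinal RNA among libraries stood beside that low count. The 20 rod genes summed to 3161, 22645, 22931 and 3971 CPM in WT libraries 1 to 4 and to 2166, 6407, 8729 and 2725 CPM in KO libraries 1 to 4. Libraries 2 and 3 of each genotype were high and libraries 1 and 4 low, and the genotypes overlapped. All 20 rod genes had negative log2 fold changes (median -1.21), yet only Slc24a1, the rod sodium, calcium and potassium exchanger, was a DEG (1121–1470.4 CPM in WT against 739.6–845 CPM in KO, log2 fold change -0.65, SE 0.11, adjusted p = 0.011). Slc24a1 was classed as shared. Rom1, a tetraspanin of the outer segment rim, was at 250.1, 718, 784 and 269.6 CPM in WT and 162, 259, 326 and 168 CPM in KO (log2 fold change -1.14, SE 0.44, adjusted p = 0.19), and Gnb1, the transducin beta subunit of rods, at 524, 1440.4, 1484 and 616 CPM in WT and 396, 618, 723 and 427 CPM in KO (log2 fold change -0.91, SE 0.39, adjusted p = 0.24). Both followed the split of libraries 2 and 3 from 1 and 4 within each genotype. With the block Rom1 and Gnb1 were called lower (adjusted p = 0.026 and 0.045), and 5 rod genes in all. The call of Slc24a1 was lost without WT library 3 (under 1.5-fold, log2 fold change -0.55). In KO retina 17 of the 20 rod genes were lower. The part of carried-over retina in values of retina-enriched genes was not tested beyond this, and in bulk RNA fewer cells of a type and less RNA per cell cannot be told apart.

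Gnb3, the cone transducin beta subunit, went the other way: 8.89, 96.3, 78.8 and 14.3 CPM in WT and 163, 308, 402 and 193 CPM in KO, with no overlap (log2 fold change 2.42, adjusted p = 0.12). It was called higher with the block (adjusted p = 0.023), and also with DESeq2 and 4 other alternatives, and its log2 fold change in the retina was 2.05. None of the 11 cone, 12 bipolar, 18 amacrine, horizontal and ganglion cell or 10 Mueller glia genes was a DEG in the unblocked fit. With the block the cone genes Pde6c (log2 fold change -0.95, adjusted p = 0.039) and Cngb3 (-1.24, adjusted p = 0.029) were called lower, and the Mueller glia list gene Crym was called higher (1.10, adjusted p = 0.041).

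Lens and ciliary body RNA varied by library rather than genotype alone. The 14 lens crystallins summed to 8.35, 751, 31.6 and 1228 CPM in WT libraries 1 to 4, with libraries 2 and 4 far above the others, and to 10.6 to 37.1 CPM in KO libraries. None was a DEG in spite of a median log2 fold change of -5.58. Cryaa, the alpha-A crystallin, was at 0, 209, 5.49 and 515 CPM in WT, listed at 0 in library 1, and at 8.64, 3.37, 0.491 and 0.12 CPM in KO (log2 fold change -5.84, SE 2.14, adjusted p = 0.17). Lens fibre genes Lim2 and Mip were DEGs, Lim2 falling from 9.9–14.8 CPM in WT to 5.93–7.08 CPM in KO (log2 fold change -0.92, SE 0.14, adjusted p = 0.0078), a spread unlike that of the crystallins. The call of Mip was lost without KO library 2, 3 or 4 (adjusted p up to 0.065). The 8 ciliary epithelium genes summed to 130, 230, 103 and 310 CPM in WT and 109 to 142 CPM in KO libraries, with no DEG. Best2, of the nonpigmented ciliary epithelium, was at 10.2, 21.4, 5.43 and 57.4 CPM in WT and 9.14, 7.48, 1.93 and 2.16 CPM in KO (log2 fold change -2.18, SE 0.83, adjusted p = 0.19), and Col9a1 at 18–111 CPM in WT against 11.2–19.2 CPM in KO.

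Corneal and blood RNA was present as well. The 6 corneal epithelium genes summed to 589 to 4916 CPM in WT and 3145 to 5434 CPM in KO libraries, with no DEG (median log2 fold change 0.96). Krt15, a basal keratin, was at 2063, 672, 253 and 656 CPM in WT and 2025, 1611, 1438 and 2612 CPM in KO. The 6 red blood cell genes summed to 2747, 2479, 4315 and 4213 CPM in WT and 1047, 2152, 919 and 2579 CPM in KO libraries. Hba-a2 (alpha globin) was below every WT value in KO (log2 fold change -1.55, adjusted p = 0.052, and 0.047 with the block), and Slc4a1, the red cell anion exchanger, was lower (log2 fold change -3.20, SE 0.59, adjusted p = 0.018), a call lost without KO library 1, 3 or 4 (adjusted p up to 0.069). Reads of globin genes may be split with near-identical copies. No endothelial, fibroblast, melanocyte or smooth muscle gene on the lists was a DEG, and Kcnj8 was the single pericyte DEG (adjusted p = 0.034), a call lost in 7 of the 8 fits with 1 library left out (adjusted p up to 0.1). With the block the fibroblast gene Dpt was called higher (adjusted p = 0.041).

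**Figure D2:**
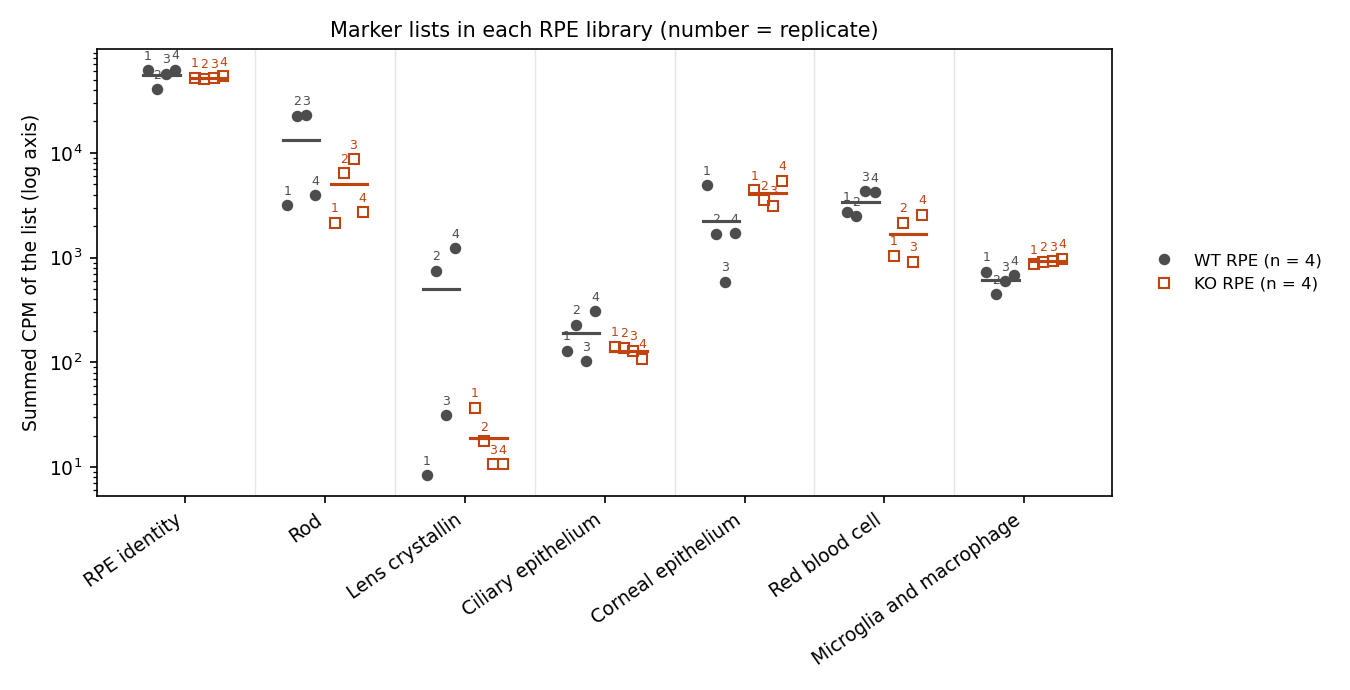
Summed CPM of 7 marker lists in each RPE library on a log axis, with WT as filled circles, KO as open squares, horizontal lines for group means and numbers for the replicate. RPE identity genes stay within 40566 to 62567 CPM, while rod and lens crystallin genes differ among WT libraries by far more. Microglia and macrophage genes (447 to 732 CPM in WT, 866 to 975 CPM in KO) do not overlap.

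The label of the tissue held. The 21 RPE identity genes summed to 61952, 40566, 56946 and 62567 CPM in WT libraries and 51335 to 53790 CPM in KO libraries. WT library 2 was the lowest of the 8, KO libraries stayed close together, and the genotypes overlapped. Of the 21, 3 were lower (Rpe65, Lrat and Slc6a13) and none was higher. The log2 fold change was negative in 16 of the 21, with a median of -0.15. The sum is weighted toward the members with most CPM and does not show the direction of the others. Among 17 transcription factors of the eye field and RPE none was a DEG: Otx2 was at 481–651 CPM in WT against 585–605 CPM in KO (log2 fold change 0.00, SE 0.10, adjusted p = 0.99), and Mitf at 70.0–103 CPM in WT against 78.8–92.9 CPM in KO (log2 fold change -0.09, SE 0.12, adjusted p = 0.72). Six3 was at 87–94.9 CPM in WT against 70.8–73.9 CPM in KO with no overlap, a change under 1.5-fold (log2 fold change -0.34, SE 0.05, adjusted p = 0.005).

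The visual cycle turns all-trans-retinol from the photoreceptors back into 11-cis-retinal. Of its 12 genes tested, 5 fell and none rose, with a median log2 fold change of -0.42. Rpe65, the isomerase, was at 4578, 2751, 4624 and 4326 CPM in WT and 2141, 2079, 2142 and 2149.8 CPM in KO (log2 fold change -0.94, SE 0.17, adjusted p = 0.016). KO libraries lay in a narrow band below all WT libraries, of which library 2 was the lowest. Lrat, which makes the retinyl ester substrate of RPE65, was at 2632, 1941, 2941 and 2718 CPM in WT and 1502, 1494, 1459.8 and 1688 CPM in KO (log2 fold change -0.74, SE 0.14, adjusted p = 0.018). Rdh10, a retinol dehydrogenase, was at 2183, 1362, 2075 and 2262 CPM in WT and 1112, 1049, 1041 and 1113 CPM in KO (log2 fold change -0.87, SE 0.16, adjusted p = 0.016). For Rdh10 too the highest KO library was below the lowest WT library.

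Rbp4, the serum retinol carrier, fell from 3.7, 4.15, 5.03 and 5.65 CPM in WT to 1.26, 0.822, 2.08 and 1.2 CPM in KO (log2 fold change -1.78, SE 0.29, adjusted p = 0.01). Its WT values rose from library 1 to 4, as did those of the plasma protein genes Alb, Afp and Ahsg described below. KO library 3 was highest in each of these genes, whereas KO library 2 was lowest in Rbp4 only. Whether Rbp4 belongs with that group or with the RPE was not tested. Other members did not pass: Rlbp1 (the 11-cis-retinal carrier) was at 2961–4720.3 CPM in WT against 3502–3811 CPM in KO, Rdh5 (11-cis-retinol dehydrogenase) at 1916–3275 CPM in WT against 2508–2742 CPM in KO, Stra6 (the RBP4 receptor) at 1243–1894 CPM in WT against 1237–1333 CPM in KO. Rgr, the RPE retinal G protein-coupled receptor, was below every WT library in KO (10578–16166 CPM in WT against 10012–10397 CPM in KO) with adjusted p = 0.14.

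Limits on these calls lay in the small margin. Leaving out KO library 1, 2, 3 or 4 left 1, 1, 3 and 2 of the 5. The call of Rpe65 was lost without KO library 1, 2 or 4 (adjusted p up to 0.062), that of Lrat without KO library 1, 2 or 3 (adjusted p up to 0.069) and that of Rdh10 without KO library 1, 2 or 4 (adjusted p up to 0.059).

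**Figure D3:**
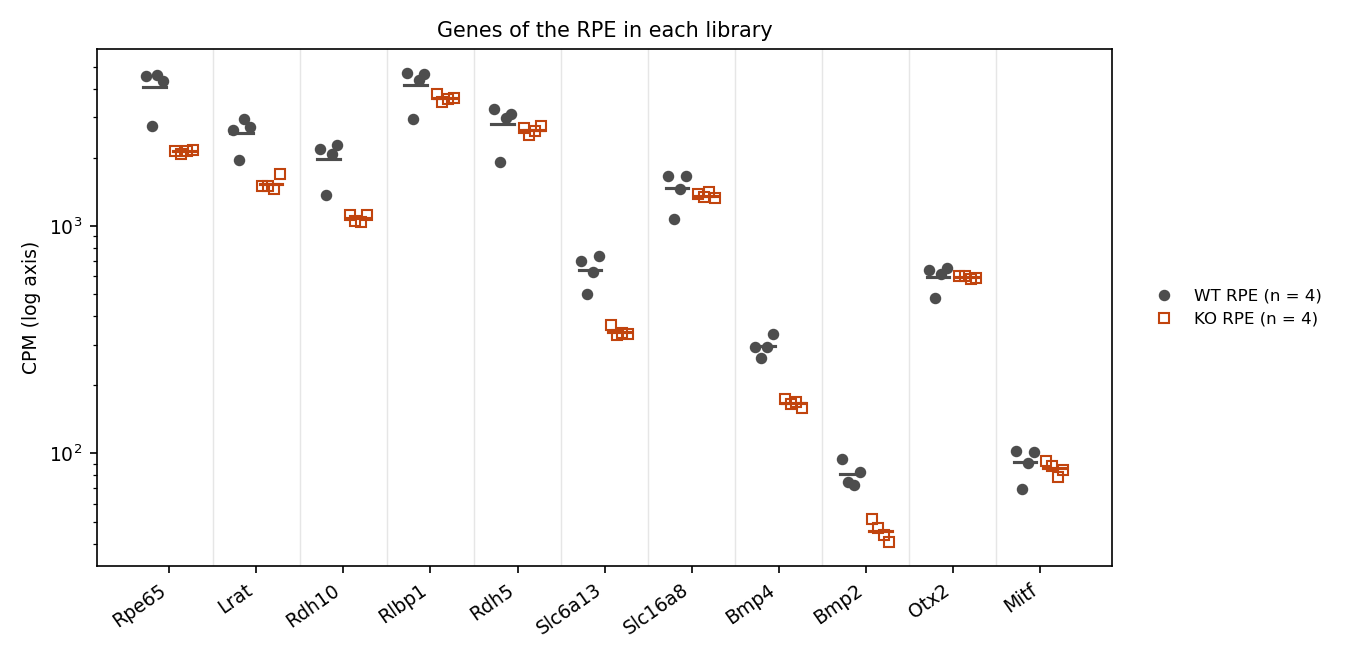
CPM of 11 genes of the RPE in each library on a log axis, with WT as filled circles, KO as open squares and horizontal lines for group means (n = 4 each). Rpe65, Lrat, Rdh10, Slc6a13, Bmp4 and Bmp2 separate without overlap, with KO lower, whereas Rlbp1, Rdh5, Slc16a8, Otx2 and Mitf overlap.

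Among 23 genes of ion, water and lactate transport, 3 fell and 1 rose, where 2.95% of all genes tested fell and 2.02% rose. Slc6a13, the GABA and taurine carrier GAT2, was at 705, 502, 629 and 736 CPM in WT and 368, 332, 338 and 334 CPM in KO (log2 fold change -0.91, SE 0.12, adjusted p = 0.0046). Slc6a6, the taurine transporter, was at 1038, 1311, 1051 and 1505 CPM in WT and 755, 727, 749 and 684 CPM in KO (log2 fold change -0.75, SE 0.13, adjusted p = 0.014), with a log2 fold change of -0.48 in retina. Both taurine carriers separated the genotypes in every library. Slc16a1 (the lactate carrier MCT1 of the apical face) was at 759–1150.0 CPM in WT against 619.9–666 CPM in KO (log2 fold change -0.69, SE 0.13, adjusted p = 0.02), while Slc16a8 (MCT3 of the basal face) overlapped at 1072–1662 CPM in WT against 1321–1404 CPM in KO. Slc12a2, the sodium, potassium and chloride cotransporter NKCC1, rose from 136–246 CPM in WT to 335–386 CPM in KO (log2 fold change 0.79, SE 0.17, adjusted p = 0.032). The call of Slc6a6 was lost without KO library 4 (adjusted p up to 0.057), and those of Slc16a1 and Slc12a2 in 6 of the 8 fits with 1 library left out (adjusted p up to 0.069 and 0.1).

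Of 24 pigment genes, 2 rose, where 2.02% of all genes tested rose. Atp7a, the copper transporter that loads tyrosinase, went from 40.6–70.0 CPM in WT to 107–110.1 CPM in KO (log2 fold change 0.94, SE 0.16, adjusted p = 0.012). Gpr143, the melanosomal receptor of ocular albinism, went from 44.1–71 CPM in WT to 96.3–104 CPM in KO (log2 fold change 0.78, SE 0.14, adjusted p = 0.013). Tyr, the tyrosinase, was at 303–517 CPM in WT against 492–525 CPM in KO (log2 fold change 0.19, SE 0.15, adjusted p = 0.52). Of 20 barrier and polarity genes, Crb2, of the apical crumbs complex, fell from 67.8–97.7 CPM in WT to 38.2–51.4 CPM in KO (log2 fold change -0.88, SE 0.13, adjusted p = 0.0078) and was also lower in KO retina (-0.87), and Cgn (cingulin of tight junctions) fell with adjusted p = 0.036, but by under 1.5-fold with the block (-0.58), a call lost in 7 of the 8 fits with 1 library left out (adjusted p up to 0.1).

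None of 15 genes of outer segment phagocytosis was a DEG. Mertk, the receptor kinase for engulfment, was at 223, 139, 212 and 221 CPM in WT and 168, 153, 161 and 173 CPM in KO (log2 fold change -0.28, SE 0.15, adjusted p = 0.33). Of 35 lysosome and autophagy genes, 3 rose and none fell, where 2.02% of all genes tested rose and 2.95% fell. Ctsa, protective protein cathepsin A, was at 283, 218, 252 and 298 CPM in WT and 409.8, 411, 416 and 418 CPM in KO (log2 fold change 0.66, SE 0.10, adjusted p = 0.0075), and Map1lc3a, an LC3 autophagosome protein, rose from 164–226 CPM in WT to 283–314 CPM in KO. The call of Map1lc3a was lost without KO library 3 or 4 or WT library 2 (under 1.5-fold, log2 fold change down to 0.52). The median log2 fold change of the 35 was 0.06.

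Secreted factors moved both ways: of 26 trophic genes, 4 fell and 4 rose, where 2.95% of all genes tested fell and 2.02% rose. Bmp4, a bone morphogenetic protein that the RPE makes, was at 293, 264, 292 and 333 CPM in WT and 174, 164, 168 and 158 CPM in KO (log2 fold change -0.83, SE 0.08, adjusted p = 0.0011). Its relative Bmp2 was at 94.5, 75.1, 72.8 and 82.5 CPM in WT and 51.2, 47, 43.7 and 40.5 CPM in KO (log2 fold change -0.83, SE 0.10, adjusted p = 0.0034). Both ligands separated without overlap and by the same 1.78-fold. Bdnf, the neurotrophin, fell from 10.7–15.9 CPM in WT to 4.76–7.33 CPM in KO (log2 fold change -1.18, SE 0.18, adjusted p = 0.0077). Vegfa, the growth factor that maintains the choriocapillaris, was at 718, 564, 684 and 661 CPM in WT and 461, 434, 432 and 410.4 CPM in KO (log2 fold change -0.60, SE 0.09, adjusted p = 0.007). In the retina Vegfa was higher in KO (0.36), and the effects differed by -0.94 (adjusted p = 0.000152). Without KO library 4, WT library 1 or WT library 3 the change of Vegfa was under 1.5-fold.

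Those that rose were low genes in WT. Angpt1 (angiopoietin 1, a vessel-stabilising ligand) rose from 5.58–8.37 CPM in WT to 16–20.5 CPM in KO (log2 fold change 1.37, SE 0.16, adjusted p = 0.0025). Edn2, endothelin 2, was at 0.326, 1.43, 0.376 and 0.523 CPM in WT and 5.96, 41.8, 46.7 and 12 CPM in KO (log2 fold change 5.28, SE 0.85, adjusted p = 0.01), and Fgf2 at 7.56, 8.69, 9.62 and 14.4 CPM in WT and 15, 38.2, 51.4 and 22.5 CPM in KO (log2 fold change 1.66, SE 0.39, adjusted p = 0.045). Within KO both were highest in libraries 2 and 3, the libraries with most rod RNA, and both rose in KO retina, by 6.83 and 3.67 on the log2 scale; the part of carried-over retina in their RPE values was not tested. With the block Fgf2 and Vegfc were not called (adjusted p = 0.051 and 0.055), and each call was lost in 7 of the 8 fits with 1 library left out (adjusted p up to 0.12 and 0.1).

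The matrix of Bruch membrane, on which the RPE rests, had 1 higher and 2 lower DEGs of 29 genes. Of all genes tested 2.02% were higher and 2.95% lower. Of the chains of type VIII collagen, Col8a1 was at 2081, 1194, 2063 and 2043 CPM in WT and 3137, 3028, 3076 and 3128 CPM in KO (log2 fold change 0.74, SE 0.18, adjusted p = 0.048), while Col8a2 was at 2558, 1872, 2249 and 2667 CPM in WT and 1568, 1453, 1393 and 1478 CPM in KO (log2 fold change -0.67, SE 0.12, adjusted p = 0.018). Col8a1 was not called with the block (adjusted p = 0.054) or in 6 of the 8 fits with 1 library left out (adjusted p up to 0.13). Col18a1, whose cleaved end is endostatin, fell from 583–929.7 CPM in WT to 404–548 CPM in KO (log2 fold change -0.72, SE 0.15, adjusted p = 0.031). Outside the list, by the size of the change, Thbs1 (thrombospondin 1) was at 1399.7, 871, 1138 and 1059.6 CPM in WT and 2604, 2275, 2234 and 2269.8 CPM in KO (log2 fold change 1.07, SE 0.15, adjusted p = 0.0052), and Pcolce, the enhancer of procollagen cleavage, at 506, 408, 431 and 559 CPM in WT and 1613, 1604, 1659 and 1689 CPM in KO (log2 fold change 1.79, SE 0.11, adjusted p = 0.00023). The call of Col8a2 was lost without KO library 1, 2, 3 or 4 (adjusted p up to 0.069) and that of Col18a1 without KO library 2, 3 or 4 or WT library 4 (adjusted p up to 0.1).

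Genes of cholesterol synthesis and uptake were lower in KO RPE. Of 20 tested, 8 fell and none rose, with a median log2 fold change of -0.60. All 20 log2 fold changes were negative and 13 had an adjusted p under 0.05. In 17 every KO library was below every WT library, against 7.81% of all genes tested. Insig1, which holds the sterol sensor in the endoplasmic reticulum, was at 169, 134, 126 and 105 CPM in WT and 56.4, 56.9, 48.5 and 58 CPM in KO (log2 fold change -1.28, SE 0.14, adjusted p = 0.002). Msmo1, the methylsterol monooxygenase, was at 161, 127, 151 and 149.8 CPM in WT and 67.3, 69.4, 70.6 and 74.2 CPM in KO (log2 fold change -1.06, SE 0.08, adjusted p = 0.00048). Idi1, isopentenyl diphosphate isomerase, was at 49.6, 39.5, 46.7 and 47.3 CPM in WT and 21.6, 24.1, 24.5 and 22.7 CPM in KO (log2 fold change -0.98, SE 0.09, adjusted p = 0.00076). In each of these 3 genes the KO libraries were at about the same level and none reached the lowest WT library.

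Among the others that fell were Mvd (mevalonate decarboxylase, log2 fold change -0.89), Nsdhl (sterol dehydrogenase, -0.68), Cyp51 (lanosterol demethylase, -0.67) and Sqle (squalene epoxidase, -0.63). Hmgcs1, HMG-CoA synthase, did not overlap but changed by under 1.5-fold (log2 fold change -0.57, SE 0.09, adjusted p = 0.0075). Leaving out 1 library gave 7 to 10 lower DEGs on the list, with Sqle lost without WT library 1 (under 1.5-fold, log2 fold change -0.56).

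The retina of the same genotype did not follow. All 20 genes had positive log2 fold changes there (median 0.20), 12 with an adjusted p under 0.05, and 2 were DEGs, both higher. In 11 genes KO libraries lay below WT in RPE and above WT in retina without overlap. The difference of the KO effects was tested as an interaction over the 16 bulk libraries, a test added after the data were seen. It had an adjusted p under 0.05 in 17 of the 20 genes, the largest of them 0.0177, against 8.84% (1863 of 21068) of all genes. For Insig1 the effects differed by -1.64 (adjusted p = 1.15e-05) and for Msmo1 by -1.23 (adjusted p = 1.04e-06).

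**Figure D4:**
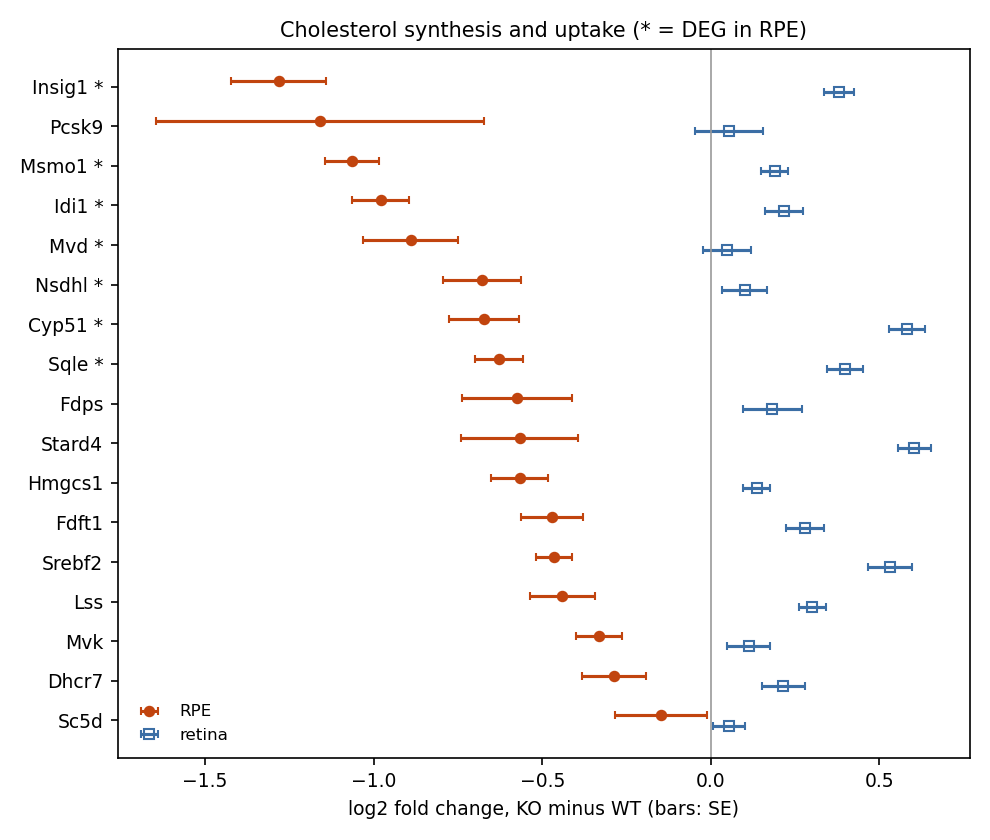
Log2 fold change, KO minus WT, of 17 of the 20 genes of cholesterol synthesis and uptake in RPE (filled circles) and retina (open squares), with bars for the SE and asterisks for DEGs in RPE. All RPE points drawn lie below 0 and all retina points above it.

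Promoters of these genes are shown because sterol-responsive genes carry short elements near their start. RefSeq promoters (GRCm38.p6, 250 bases before to 50 after the start) were at hand for 12 of the 20 genes. CCAAT, the box bound by NF-Y, was searched on both strands, where it reads ATTGG on the other strand. It was found in 12 of 12, including the 6 DEGs with a promoter, against 41.1% of all genes with a promoter and 42.4% of the genes tested. The letters TCACNCCAC, a sterol element, were found in 1 of 12 (Hmgcs1), against 1.44% of all genes. A match is a run of letters, not a measured site. The promoters of the 3 genes with the largest falls among those are given 5′ to 3′ on the strand of the gene, with CCAAT or ATTGG in capitals: Msmo1 at chr8:64733529-64733828 (minus strand), Idi1 at chr13:8885356-8885655 (plus strand) and Insig1 at chr5:28071162-28071461 (plus strand).
Msmo1: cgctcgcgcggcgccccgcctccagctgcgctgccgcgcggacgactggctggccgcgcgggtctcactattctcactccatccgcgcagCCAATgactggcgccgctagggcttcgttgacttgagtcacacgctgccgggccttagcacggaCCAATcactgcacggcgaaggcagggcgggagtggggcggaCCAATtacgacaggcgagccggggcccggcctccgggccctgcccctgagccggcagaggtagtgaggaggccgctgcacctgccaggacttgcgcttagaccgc
Idi1: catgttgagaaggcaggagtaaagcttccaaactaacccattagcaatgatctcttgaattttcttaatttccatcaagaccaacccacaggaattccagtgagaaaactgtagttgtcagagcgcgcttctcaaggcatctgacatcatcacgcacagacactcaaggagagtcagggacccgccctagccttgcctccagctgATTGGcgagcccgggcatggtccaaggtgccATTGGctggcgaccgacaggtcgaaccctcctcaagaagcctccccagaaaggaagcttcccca
Insig1: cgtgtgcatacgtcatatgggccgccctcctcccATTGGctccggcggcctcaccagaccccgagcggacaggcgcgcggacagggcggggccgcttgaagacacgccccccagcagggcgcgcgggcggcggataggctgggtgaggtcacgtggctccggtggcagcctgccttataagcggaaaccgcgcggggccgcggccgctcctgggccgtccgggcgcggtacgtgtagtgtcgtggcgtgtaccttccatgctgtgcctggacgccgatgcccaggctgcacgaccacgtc

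3 genes of fatty acid supply, chosen after their values were seen, were lower in KO. Mfsd2a, the carrier of lysophosphatidylcholine with docosahexaenoic acid, was at 63.2, 54.8, 63.2 and 58.3 CPM in WT and 19.7, 19.9, 19.8 and 22.1 CPM in KO (log2 fold change -1.55, SE 0.07, adjusted p = 6.5e-05). Its KO libraries lay together, well under the lowest WT library. Fads1, a fatty acid desaturase, was at 353, 335, 315 and 394 CPM in WT and 183, 184, 199 and 188 CPM in KO (log2 fold change -0.89, SE 0.08, adjusted p = 0.00082). Elovl2, the elongase of long polyunsaturated fatty acids, was at 45, 41.6, 55.3 and 54.9 CPM in WT and 27.2, 36.1, 34.1 and 27.7 CPM in KO (log2 fold change -0.65, SE 0.13, adjusted p = 0.026), a call lost without KO library 1 or 4 or WT library 3 or 4 (adjusted p up to 0.087). In the retina Mfsd2a and Fads1 were higher in KO, by 0.58 and 0.41 on the log2 scale, and Elovl2 was lower (-0.56). The effects in RPE and retina differed by -2.12 for Mfsd2a (adjusted p = 1.04e-06) and -1.28 for Fads1 (adjusted p = 1.21e-06).

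Enpp2 (autotaxin), which makes lysophosphatidic acid, was at 5434, 4229.7, 6315 and 5365 CPM in WT and 2561, 2567, 2622 and 2842 CPM in KO (log2 fold change -1.01, SE 0.14, adjusted p = 0.0048). Of 28 genes of PPAR and AMPK signalling and fatty acid oxidation, the routes known downstream of adiponectin receptors, 1 rose and 1 fell. Of all genes tested 2.02% rose and 2.95% fell. Plin2, the coat protein of lipid droplets, rose from 111, 86.7, 95.4 and 121 CPM in WT to 227, 189, 196 and 223 CPM in KO (log2 fold change 1.01, SE 0.12, adjusted p = 0.0025). Ppara fell from 10.2–14.9 CPM in WT to 6.62–8.29 CPM in KO (adjusted p = 0.041), and was not called with the block (adjusted p = 0.055) or in 6 of the 8 fits with 1 library left out (adjusted p up to 0.12). Of 32 genes of ceramide turnover none was a DEG (median log2 fold change -0.10). Cers5, a ceramide synthase, was at 92.3–130.1 CPM in WT against 90.5–97.4 CPM in KO (log2 fold change -0.28, SE 0.10, adjusted p = 0.17), Cers4 at 169–209 CPM in WT against 146–162 CPM in KO (log2 fold change -0.22, SE 0.08, adjusted p = 0.18) and Kdsr, of the de novo route, at 86.4–125 CPM in WT against 85.5–93 CPM in KO (log2 fold change -0.33, SE 0.11, adjusted p = 0.15).

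Complement and acute phase genes were among the largest rises in CPM. A2m, alpha-2-macroglobulin, a protease trap, was at 692, 501, 681 and 741 CPM in WT and 6398, 6771, 7040.2 and 6792 CPM in KO, 10.3-fold higher (log2 fold change 3.37, SE 0.15, adjusted p = 5.6e-05). Serpina3n, a serine protease inhibitor of reactive glia, was at 80.3, 147, 46.8 and 256 CPM in WT and 1289, 1538, 1429 and 1555 CPM in KO (log2 fold change 3.45, SE 0.50, adjusted p = 0.0065). Of 18 complement genes, 6 rose and none fell. C4b was at 30.7, 27.9, 17.6 and 47.8 CPM in WT and 838, 815, 798 and 856 CPM in KO (log2 fold change 4.74, SE 0.30, adjusted p = 0.00023). Its near-identical copy C4a rose from 2.6–4.5 CPM in WT to 62.2–69.1 CPM in KO, and reads of the pair may be split between them. Cfi, complement factor I, which cleaves C3b and C4b, was at 0.898, 1.53, 2.17 and 3.09 CPM in WT and 74.6, 87.2, 76.3 and 84.2 CPM in KO (log2 fold change 5.43, SE 0.34, adjusted p = 0.00023). Each KO library was over every WT library for all of these genes.

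The early classical pathway proteases C1ra and C1s1 rose by 1.35 and 0.93 on the log2 scale (adjusted p = 0.0023 and 0.01). Clu, clusterin, an inhibitor of the terminal complex, was at 7740.2, 5306, 7056 and 7973 CPM in WT and 12347, 12129.9, 12244 and 12543 CPM in KO (log2 fold change 0.81, SE 0.16, adjusted p = 0.021). The receptor gene C3ar1, which microglia express, rose from 0.751–1.25 CPM in WT to 1.68–2.88 CPM in KO. Neither Clu nor C3ar1 was called with the block (adjusted p = 0.052 and 0.066). The call of Clu was also lost in 5 of the 8 fits with 1 library left out (adjusted p up to 0.074) and with the lens crystallin or ciliary level as covariate, and that of C3ar1 in 6 of the 8 (adjusted p up to 0.11). C3 itself was at 8.84, 9.31, 10.2 and 15.6 CPM in WT and 14.6, 8.46, 11.5 and 13.5 CPM in KO (log2 fold change 0.13, SE 0.23, adjusted p = 0.78), and in KO retina its log2 fold change was 2.60. For C3 the effects differed between RPE and retina by -2.45 (adjusted p = 0.000219).

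Cytokine signalling through gp130 (IL6ST) and STAT3 induces many acute phase genes. Of 30 JAK-STAT and cytokine receptor genes, 6 rose and none fell (median log2 fold change 0.52), where 2.02% of all genes tested rose. In 17 of the 30 every KO library was above every WT library, against 7.37% of all genes tested. Osmr, the oncostatin M receptor, was at 173–271 CPM in WT and 885, 916, 972 and 989 CPM in KO (log2 fold change 1.97, SE 0.15, adjusted p = 0.00048). Its partner Il6st was at 213–256 CPM in WT against 283–309 CPM in KO, without overlap but under 1.5-fold (adjusted p = 0.029), and Lifr at 22.8–45.9 CPM in WT against 50.5–61.4 CPM in KO (adjusted p = 0.14). Stat3 was at 109, 96.5, 82 and 93.1 CPM in WT and 234, 233, 238 and 235 CPM in KO (log2 fold change 1.31, SE 0.08, adjusted p = 0.00025). Socs3, the feedback inhibitor that STAT3 induces, was at 3.35, 5.51, 2.92 and 5.65 CPM in WT and 17.6, 24.4, 27.8 and 22.4 CPM in KO (log2 fold change 2.41, SE 0.26, adjusted p = 0.0019). Cebpd, a transcription factor of the acute phase, rose from 9.59–17.1 CPM in WT to 54.8–78.4 CPM in KO (log2 fold change 2.28, SE 0.20, adjusted p = 0.00075) and Jak3 from 9.74–15 CPM in WT to 28.3–35.8 CPM in KO (log2 fold change 1.38, SE 0.15, adjusted p = 0.002). Bcl3 rose 4.19-fold, and was not called with the block (adjusted p = 0.065) or in 5 of the 8 fits with 1 library left out (adjusted p up to 0.079). In KO retina 16 genes of the list rose and 1 fell.

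The letters TTCNNNGAA, the core that STAT proteins bind, were found on either strand in the promoters of 6 of 27 genes of this list (22.2%), against 9.55% of all genes. Among the DEGs with a promoter it was found in 1 of 5, Socs3, shown here because it is the target gene of the list. It lies at chr11:117969317-117969616 (minus strand), with the match in capitals.
Socs3: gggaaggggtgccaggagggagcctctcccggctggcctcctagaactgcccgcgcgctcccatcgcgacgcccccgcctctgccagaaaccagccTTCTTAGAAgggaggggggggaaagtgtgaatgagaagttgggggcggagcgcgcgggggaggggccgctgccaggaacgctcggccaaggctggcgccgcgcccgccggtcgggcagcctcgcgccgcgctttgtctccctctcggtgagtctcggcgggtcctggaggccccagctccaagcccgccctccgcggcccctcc

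**Figure D5:**
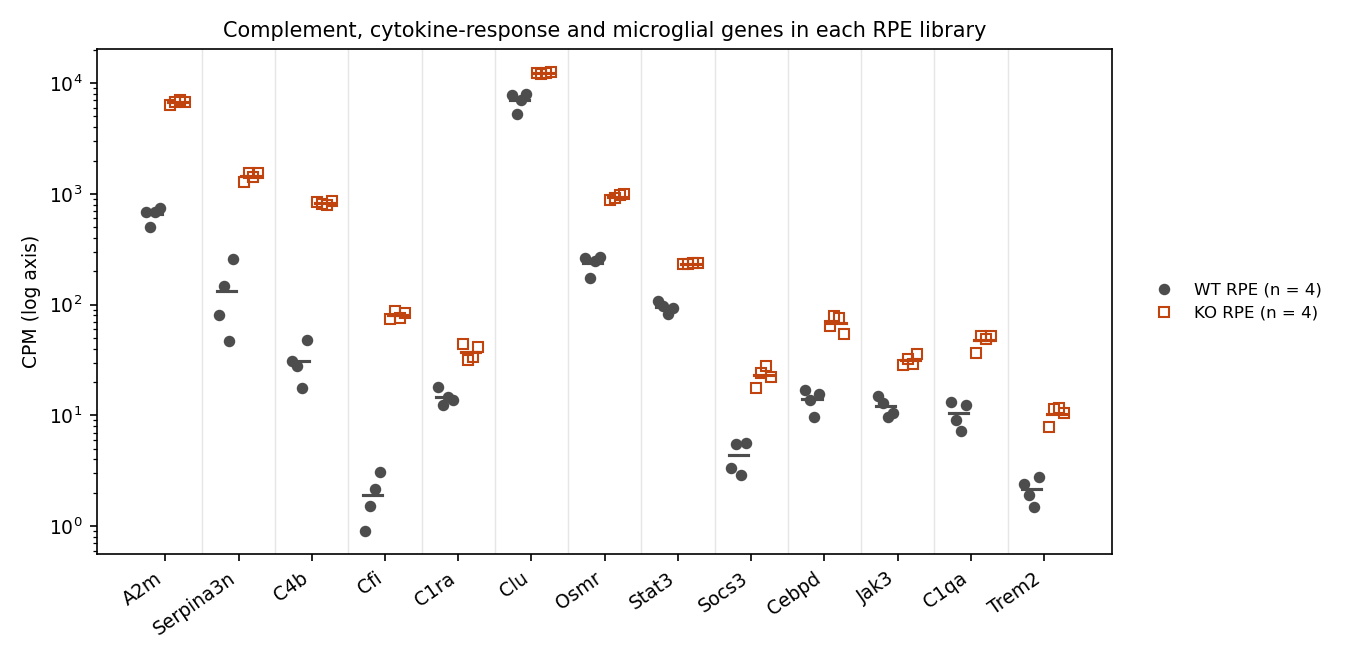
CPM of 13 genes of complement, cytokine response and microglia in each RPE library on a log axis, with WT as filled circles, KO as open squares and horizontal lines for group means (n = 4 each). KO libraries lie above WT libraries for all 13, from 1.75-fold for Clu to 43.1-fold for Cfi.

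Microglia and macrophage genes rose in number: 14 of 20, and none fell (median log2 fold change 1.27), while their summed level went from 447 to 732 CPM in WT to 866 to 975 CPM in KO. C1qa, a chain of C1q, was at 13.3, 9.16, 7.19 and 12.5 CPM in WT and 36.9, 52.1, 49 and 52.4 CPM in KO (log2 fold change 2.18, SE 0.22, adjusted p = 0.0013). Trem2, the lipid-sensing receptor of phagocytes, was at 2.42, 1.93, 1.5 and 2.77 CPM in WT and 7.84, 11.4, 11.8 and 10.5 CPM in KO (log2 fold change 2.27, SE 0.22, adjusted p = 0.0013). Cx3cr1, the fractalkine receptor, rose from 2.34–4.08 CPM in WT to 8.71–11.3 CPM in KO (log2 fold change 1.64, SE 0.19, adjusted p = 0.0026), and Aif1 from 0.665–1.41 CPM in WT to 2.13–2.91 CPM in KO (log2 fold change 1.32, SE 0.24, adjusted p = 0.017). P2ry12, of resting microglia, rose from 0.49–1.1 CPM in WT to 1.37–2.39 CPM in KO (adjusted p = 0.044, lost in 7 of the 8 fits with 1 library left out), and Tmem119 was at 4.97–10.3 CPM in WT against 10.1–11 CPM in KO (adjusted p = 0.14). The perivascular macrophage markers Mrc1 and Cd163 overlapped, at 2.08–4.95 CPM in WT against 2.46–6.61 CPM in KO and 1.27–3.82 CPM in WT against 1.49–4.28 CPM in KO. In KO retina 18 of 19 genes of the list rose. In RPE the call of Aif1 was lost without KO library 2, 3 or 4 (adjusted p up to 0.061).

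Nuclear division genes were higher in KO RPE. Of 32, 15 rose and none fell (median log2 fold change 1.17), against 1 higher and 3 lower of 24 in retina. Mki67, the proliferation antigen, was at 11.9, 6.76, 5.66 and 10 CPM in WT and 29.6, 18.1, 17.4 and 24.2 CPM in KO (log2 fold change 1.38, SE 0.28, adjusted p = 0.024). Cenpa, the centromeric histone, was at 2.75, 2.2, 1.96 and 1.57 CPM in WT and 5.6, 4.43, 5.03 and 6.29 CPM in KO (log2 fold change 1.32, SE 0.20, adjusted p = 0.0076). In the retina Cenpa was lower in KO (-1.20), a difference of effects of 2.54 (adjusted p = 2.43e-05). Kif20a, a mitotic kinesin, rose from 1.16–2.23 CPM in WT to 3.64–6 CPM in KO (log2 fold change 1.54, SE 0.24, adjusted p = 0.009) and Ccnb2, cyclin B2, from 1.56–2.26 CPM in WT to 3.21–5.42 CPM in KO (log2 fold change 1.30, SE 0.21, adjusted p = 0.0092). Mki67 was highest in WT library 1 and in KO libraries 1 and 4, which were also highest in corneal epithelium genes within their genotype, and the part of corneal RNA was not tested. Mki67 was not called without KO library 1 or 4 or WT library 3 (adjusted p up to 0.076). The count on the list was 4, 9 and 3 without KO libraries 1, 2 and 4, 6 without WT library 3 and 20 without WT library 1. It was 1 with the lens crystallin level as covariate, 5 with the ciliary level, 23 with DESeq2, 0 with libraries 1 and 4 alone of each genotype and 2 with libraries 2 and 3 alone.

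The lists of stress, antigen presentation, gliosis and clock genes were short and held few DEGs each. Some shares were above the 4.97% of all genes tested (2 of 17 antigen presentation genes) and others below it (1 of 24 NRF2 targets). Of 24 NRF2 targets Hmox1, heme oxygenase 1, rose from 17.1–26.2 CPM in WT to 40.6–46 CPM in KO (log2 fold change 0.98, SE 0.13, adjusted p = 0.0037) as the 1 DEG. Atf3, a stress-induced factor, was the 1 DEG of 23 genes of the unfolded protein response (log2 fold change 1.10, SE 0.21, adjusted p = 0.019) and with Jund 1 of 2 among 18 immediate early genes. Nlrc5, the transactivator of MHC class I genes, rose from 1.65–2.07 CPM in WT to 4.37–6.31 CPM in KO (log2 fold change 1.60, SE 0.16, adjusted p = 0.0015), and Tap2 was the other DEG of 17 antigen presentation genes. All 17 had positive log2 fold changes (median 0.68). In 5 of them all KO values lay above all WT values, against 7.37% of all genes tested. Of 24 genes of gliosis and dedifferentiation Tnc, tenascin C, rose from 13.6–19.3 CPM in WT to 31.8–39.2 CPM in KO (log2 fold change 1.15, SE 0.12, adjusted p = 0.0015) beside Serpina3n. The median log2 fold change of these 24 was 0.55, with 16 positive and 8 negative. Slc39a14, a zinc and iron importer, rose from 52.8–62 CPM in WT to 118–129 CPM in KO (log2 fold change 1.08, SE 0.06, adjusted p = 0.00021), whereas Mt3, a metallothionein, fell from 203–313 CPM in WT to 141–155 CPM in KO (log2 fold change -0.80, SE 0.12, adjusted p = 0.0077). Cry1 was the 1 DEG of 18 clock genes (log2 fold change -0.73, SE 0.14, adjusted p = 0.019). The call of Atf3 was lost without KO library 1 or 2 or WT library 3 (adjusted p up to 0.057), that of Cry1 without KO library 1, 2 or 4 (adjusted p up to 0.071), and those of Jund and Tap2 in most fits with 1 library left out (adjusted p up to 0.11 and 0.12). None of 13 mitochondrially encoded genes and none of 15 p53 genes was a DEG.

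Some genes were low in WT RPE and well above that in KO. Nup62cl, a relative of a nuclear pore protein, was at 0.299, 0.321, 0.347 and 0.471 CPM in WT and 29.5, 38.3, 34 and 34.9 CPM in KO (log2 fold change 6.59, SE 0.17, adjusted p = 3.1e-06). Adra1a, the alpha-1A adrenergic receptor, was at 0.544, 0.864, 0.578 and 1.41 CPM in WT and 16.3, 15.4, 13.1 and 12.9 CPM in KO (log2 fold change 4.12, SE 0.31, adjusted p = 0.00048). For these genes no WT library was over 1.41 CPM and no KO library under 12.9 CPM. Sulf2, which trims heparan sulfate, was at 13.5, 26.2, 15.1 and 11.4 CPM in WT and 243, 241, 278 and 255 CPM in KO (log2 fold change 3.94, SE 0.26, adjusted p = 0.0003). Chrna3, a nicotinic receptor subunit, rose from 1.09–3.58 CPM in WT to 8.22–13.3 CPM in KO (log2 fold change 2.23, SE 0.35, adjusted p = 0.0094). In KO retina the log2 fold changes were 0.51 for Adra1a, 0.74 for Sulf2 and 0.39 for Chrna3.

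In the other direction Serpine3, a serpin, was at 72.3, 198, 54 and 193 CPM in WT and 5.2, 5.25, 2.04 and 10.8 CPM in KO (log2 fold change -4.47, SE 0.65, adjusted p = 0.0065). Upk3b, a uroplakin of mesothelium, was at 65.4, 63.1, 57.7 and 112 CPM in WT and 7.01, 4.35, 3.93 and 7.29 CPM in KO (log2 fold change -3.72, SE 0.31, adjusted p = 0.00063). WT libraries 2 and 4, which were highest in lens crystallins, were also the highest for Serpine3.

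A last list held plasma proteins that the liver makes. Of 29 genes, 23 fell and none rose (median log2 fold change -3.12), against 2 higher and 0 lower of 18 in the retina. The summed level went the other way, from 15270 to 24016 CPM in WT libraries to 25827 to 27407 CPM in KO libraries, and most of it came from 1 member that was not called. Alb, albumin, was at 81.9, 125, 177 and 202 CPM in WT and 3.97, 17.3, 24.8 and 4.44 CPM in KO (log2 fold change -3.54, SE 0.66, adjusted p = 0.018). Afp, alpha-fetoprotein, was at 28.5, 50.3, 80.8 and 96.9 CPM in WT and 0.795, 4.46, 7.41 and 1.92 CPM in KO (log2 fold change -4.13, SE 0.70, adjusted p = 0.012). Ahsg, fetuin A, was at 22.5, 32.6, 43.6 and 44.4 CPM in WT and 0.795, 3.92, 6.54 and 1.28 CPM in KO (log2 fold change -3.51, SE 0.64, adjusted p = 0.016). The KO libraries were all below the WT libraries for these 3, with KO libraries 2 and 3 above KO libraries 1 and 4 and WT library 1 the lowest of its group. The clotting genes F2 (prothrombin) and Serpinc1 (antithrombin) fell from 1.06–2.77 CPM in WT to 0.108–0.313 CPM in KO and from 1.17–2.93 CPM in WT to 0.289–0.4 CPM in KO. The red blood cell genes were also lower in sum in KO libraries 1 and 3, at 1047 and 919 CPM, and their part in the plasma protein values was not tested. Alb was not called without KO library 2 (adjusted p up to 0.054) and Ahsg without KO library 2 or 4 (adjusted p up to 0.056). The count was 12, 8 and 10 without KO libraries 1, 2 and 4, and 14 and 15 without WT libraries 3 and 4. It was 5 with the lens crystallin level as covariate, where Alb, Afp and Ahsg were not called, 11 with the ciliary level, 6 with libraries 1 and 4 alone of each genotype and 12 with libraries 2 and 3 alone.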

How the data were processed

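Bulk RNA of RPE and retina was sequenced with TruSeq libraries. The authors deposited counts per gene (whole numbers, not normalised, mm10), here read as raw counts. The submitters' processing notes name bcl2fastq, FastQC, HOMER and edgeR 3.20.9. For the aligner and the treatment of reads that match several places: not given in the sources used here. Symbols and gene types came from GENCODE M21 for 53706 of 53801 genes. The 8 RPE libraries were fitted in edgeR 4.0.16 (R 4.3.3) with TMM, filterByExpr and the quasi-likelihood test, with Benjamini-Hochberg adjustment over 18989 genes. DEGs had adjusted p under 0.05 and a change of at least 1.5-fold. CPM were scaled by TMM. Gene lists and comparisons were chosen with earlier results of these data known.

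Named genes were, per origin class, up to 6 DEGs in each direction by fold change (mean of at least 5 CPM, no overlap), the 6 per direction by CPM difference, the 3 list members with the smallest p, and some fixed ones; those added later are so described. Replicate numbers come from the library titles. Deviations of same-numbered WT and KO libraries from their group means correlated at 0.52, 0.51, 0.66 and 0.29 for numbers 1 to 4. KO library 4 deviated most like a WT library of another number. The labels do not pair the libraries, so the main fit has no block and the numbers enter only alternative fits. The 5 sex-linked genes summed to 165, 152, 842 and 685 CPM in WT libraries 1 to 4. In KO libraries 1 to 4 they summed to 181, 168, 766 and 784 CPM. What the numbers stand for was not tested. Alternatives were DESeq2 1.42.0, limma-voom 3.58.1, other scaling and filters, marker covariates, the replicate block, leaving out each library, subsets by number and class limits. The subsets, the protein-coding fit, the class by WT libraries and the tissue interaction were added after the data were seen. The scripts were tested on simulated data. Single-cell files were not used here. Some genes of the lists are counted but not named.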

Additional observations from a re-analysis of the deposited data

Results flagged for a closer look

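In 16 cases a single library stood apart from the 3 others of its genotype by Dixon's criterion, out of 288 groups of 4 examined. Chance gives about 1 in 20. In WT library 2 Rpe65 (2751 CPM), Slc16a1 (759 CPM), Mertk (139 CPM), Col8a1 (1194 CPM) and Kdsr (86.4 CPM) were below the other WT libraries, and the RPE identity sum was lowest there as well. In WT library 1 Sqle (108 CPM) was above the others, in WT library 3 Slc24a1 (1470.4 CPM) and Cers4 (209 CPM), and in WT library 4 Upk3b (112 CPM) and the summed Mueller glia genes (5760.2 CPM). Among KO libraries, library 1 was above the others in Thbs1 (2604 CPM) and below them in Aif1 (2.13 CPM). KO library 2 was lowest in Rpe65 (2079 CPM), KO library 3 in Insig1 (48.5 CPM) and Tpt1-ps5 (2.8 CPM), and KO library 4 was highest in Mfsd2a (22.1 CPM).

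The KO effects in RPE and retina were compared by an interaction over the 16 bulk libraries, added after the data were seen (edgeR, adjusted over all genes). Of the 127 genes reported that were tested, 62 had an adjusted p under 0.05, against 8.84% (1863 of 21068) of all genes. In 24 of the 62 the log2 fold changes had opposite signs. Most reported genes were chosen by their change in RPE, so a high share was built in and is not a result about tissues. Among cholesterol genes the log2 fold change in RPE was -1.06 for Msmo1 (0.19 in retina), -0.98 for Idi1 (0.22), -1.28 for Insig1 (0.38), -0.63 for Sqle (0.40), -0.67 for Cyp51 (0.58), -0.57 for Hmgcs1 (0.14), -0.89 for Mvd (0.05) and -0.68 for Nsdhl (0.10). Of the genes of fatty acid supply and ceramide turnover, Mfsd2a was at -1.55 (0.58), Fads1 at -0.89 (0.41) and Cers5 at -0.28 (0.16). Of secreted and matrix genes, Vegfa was at -0.60 (0.36), Bmp4 at -0.83 (0.46) and Col18a1 at -0.72 (0.55). Of RPE genes, Rdh10 was at -0.87 (0.15), Cgn at -0.59 (0.19) and Six3 at -0.34 (0.13). Gm8797 was at -1.87 (0.10), and the pseudogenes Gm4335 and Tpt1-ps5 were at -2.27 (0.52) and -1.74 (0.16). Mt3 was at -0.80 (0.32), Nuak2 at -1.32 (0.14) and Serpinc1 at -2.61 (0.27). In the opposite direction Cenpa was at 1.32 in RPE and -1.20 in retina. The adjusted p of the difference was between 2.03e-08 (Gm8797) and 0.0325 (Col18a1).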

How the results depend on the processing

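In all alternatives Adipor1 stayed lower in KO (log2 fold change -1.55 to -1.41), and no named gene went from a higher to a lower call or back. The numbers of DEGs depended on the fit, with 944 DEGs as reported. The counts that moved by over 1.5 times are given as DEGs in a class and direction, and the cause was not tested. DESeq2 gave 1441 DEGs in all, 659 higher DEGs, 320 RPE-enriched higher, 4 retina-enriched higher, 18 retina-enriched lower, 335 shared higher, 536 protein-coding higher and 356 protein-coding lower. Limma-voom gave 0 retina-enriched higher. Library totals without TMM gave 0 retina-enriched higher and 0 retina-enriched lower. Without a filter the count was 0 retina-enriched lower. With a minimum of 1 CPM in 4 libraries it was 0 retina-enriched lower. Without a minimum fold change there were 345 shared higher, 396 protein-coding lower and 78 processed pseudogenes higher. A fit on all 16 bulk libraries gave 1571 DEGs in all, 727 higher DEGs, 844 lower DEGs, 306 RPE-enriched higher, 7 retina-enriched higher, 53 retina-enriched lower, 414 shared higher, 605 shared lower, 580 protein-coding higher and 370 protein-coding lower. The replicate block gave 5 retina-enriched higher and 37 retina-enriched lower. The rod level as covariate gave 1430 DEGs in all, 726 higher DEGs, 296 retina-enriched higher, 4 retina-enriched lower and 602 protein-coding higher. The lens crystallin level as covariate gave 483 DEGs in all, 182 higher DEGs, 301 lower DEGs, 81 RPE-enriched higher, 85 RPE-enriched lower, 0 retina-enriched higher, 0 retina-enriched lower, 101 shared higher, 216 shared lower, 145 protein-coding higher, 130 protein-coding lower, 20 processed pseudogenes higher and 151 processed pseudogenes lower. The ciliary epithelium level gave 625 DEGs in all, 365 lower DEGs, 100 RPE-enriched lower, 0 retina-enriched higher, 0 retina-enriched lower, 150 protein-coding lower and 30 processed pseudogenes higher. Libraries 1 and 4 alone of each genotype gave 203 DEGs in all, 89 higher DEGs, 114 lower DEGs, 45 RPE-enriched higher, 65 RPE-enriched lower, 6 retina-enriched higher, 2 retina-enriched lower, 38 shared higher, 47 shared lower, 80 protein-coding higher, 81 protein-coding lower, 3 processed pseudogenes higher and 27 processed pseudogenes lower. Libraries 2 and 3 alone gave 389 DEGs in all, 234 higher DEGs, 155 lower DEGs, 37 RPE-enriched lower, 2 retina-enriched higher, 56 retina-enriched lower, 88 shared higher, 62 shared lower, 191 protein-coding higher, 95 protein-coding lower, 22 processed pseudogenes higher and 46 processed pseudogenes lower. A fit on protein-coding genes alone gave 444 DEGs in all, 230 higher DEGs, 214 lower DEGs, 94 RPE-enriched lower, 0 retina-enriched higher, 0 retina-enriched lower, 115 shared higher and 120 shared lower. A class limit of 1 on the log2 scale gave 326 RPE-enriched lower, 9 retina-enriched higher, 15 retina-enriched lower, 132 shared higher and 220 shared lower. A class limit of 3 gave 86 RPE-enriched higher, 94 RPE-enriched lower, 0 retina-enriched higher and 0 retina-enriched lower. Classing by the WT RPE libraries alone gave 110 RPE-enriched higher, 265 RPE-enriched lower, 6 retina-enriched higher and 0 retina-enriched lower. With 1 library left out the ranges were 563 to 1677 DEGs in all, 226 to 1076 higher DEGs, 336 to 603 lower DEGs, 100 to 673 RPE-enriched higher, 92 to 217 RPE-enriched lower, 0 to 2 retina-enriched higher, 0 to 13 retina-enriched lower, 126 to 403 shared higher, 243 to 437 shared lower, 178 to 935 protein-coding higher, 131 to 290 protein-coding lower, 27 to 70 processed pseudogenes higher and 178 to 260 processed pseudogenes lower. Of the lists, the lens crystallin covariate left 2 visual cycle genes lower, 3 complement and 8 microglia genes higher, and the fit on all 16 bulk libraries left 2 visual cycle genes lower and no RPE identity gene. With 1 library left out 1 to 6 visual cycle genes were lower. Libraries 1 and 4 alone left 2 visual cycle and 2 cholesterol genes lower and 2 complement, 2 microglia and 3 JAK-STAT genes higher. Libraries 2 and 3 alone left 0 visual cycle and 2 cholesterol genes lower and 7 microglia genes higher. The replicate block changed the call of 19 of 225 named genes, 9 lost and 10 gained, and the report gives the value for those it describes. Of the named genes 51 of 225 lost their call with the lens crystallin covariate and 78 of 223 with libraries 1 and 4 alone. Normalisation with RLE factors changed no call of a named gene. No scaling moved the median log2 fold change of all genes by over 0.1. The rod, lens crystallin and ciliary covariates each took a degree of freedom from 8 libraries, with 1430, 483 and 625 DEGs. Its part in these counts was not tested. Genes under about 1 CPM rest on few reads.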
